A study of Vigna radiata with 9 samples.

Results

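Homeobox-leucine zipper (HD-Zip) proteins are transcription factors found only in plants, in which a DNA-binding homeodomain is followed directly by a leucine zipper through which a pair of proteins binds DNA together. The genes described here were those of the mung bean (Vigna radiata) count table whose description held the words "Homeobox-leucine zipper protein", the shade-response gene HAT4 (LOC106776417) among them. The rule found 54 of the 26966 genes in the table. Their names are those of the most similar Arabidopsis or rice proteins, 27 distinct names in all, and 18 of the names were shared by more than 1 gene, so each gene is given with its locus number. By position in the RefSeq table of the Vradiata_ver6 assembly, 47 members lay on 11 numbered chromosomes and 7 on unplaced sequence.

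RNA was taken from leaves of the mung bean cultivar Lvfeng No.2, treated at the onset of flowering, and each of 3 groups had 3 libraries from separately potted plants. CK plants were sprayed with water and stayed under natural conditions. LT plants were sprayed with water and held at 15 °C for 4 days in a growth chamber. LT+S plants received a uniconazole spray of 50 mg/L and were moved 36 h later to the same cold, also for 4 days. Uniconazole is a triazole plant growth retardant that blocks gibberellin synthesis, mainly at ent-kaurene oxidase, and also acts on other cytochrome P450 enzymes. The labels number the compound differently in each of the LT+S libraries, while the methods name 1 compound, S3307, for the whole group, and the libraries were taken as replicates of 1 treatment. The place of growth changed together with the temperature between CK and LT, and the effects of these cannot be told apart. The labels give no sampling day for CK, so leaf age may differ as well. No group sprayed with uniconazole and kept warm was analysed here, so LT+S against CK holds both the cold and the spray.

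The family has 4 classes. In Arabidopsis, class I proteins act mostly in responses to water deficit, abscisic acid and light. Class II proteins, with HAT4 as the type member, take part in shade avoidance and are induced when far-red light is rich relative to red. Class III proteins set the upper side of the leaf, the meristem and the vascular tissue, and their transcripts are cut by microRNA miR165/166. Class IV proteins act in the outermost cell layer, where they govern the identity of the epidermis, hairs and anthocyanin. Placed in classes by their names, the members were 18 of class I, 14 of class II, 6 of class III and 16 of class IV.

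The total count of a library lay between 19561896 and 21617340 for CK, between 20412987 and 21104500 for LT, and between 20750500 and 21472254 for LT+S. The TMM factors, which correct for differences in composition between libraries, were 0.781 to 0.804 in CK, between 1.05 and 1.17 in LT and between 1.096 and 1.14 in LT+S. Levels are given as CPM, the reads of a gene relative to the TMM-scaled library size, which is comparable between libraries for 1 gene but not between genes, since no transcript lengths were at hand. Tests were edgeR quasi-likelihood tests over 19304 genes with Benjamini-Hochberg adjustment, and a member was called at an adjusted p below 0.05. In all, 43 members passed the filter on low counts: 14 of 18 in class I, 13 of 14 in class II, all 6 in class III and 10 of 16 in class IV. Of the 11 others, 3 had no count in any library, and the rest are given with their class. Since whole leaves were used, fewer cells of a type and less RNA per cell cannot be told apart. Leaf identity was checked with 20 mesophyll genes (Rubisco small subunits and chlorophyll a-b binding proteins), all of them detected. Their summed level was 59975 to 101475 CPM in CK, 6725 to 15357 CPM in LT and 15862 to 18277 CPM in LT+S, and the part of this shift in the results below was not tested.

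Low temperature was accompanied by changes in both directions within the family. Against CK, 20 of the 43 tested members were called in LT, 13 higher and 7 lower, against 46.5% of all genes tested (22.8% higher and 23.7% lower). The count of called members was thus at the level of the whole table. The median log2 fold change was 0.17 over the members and 0.01 over all genes tested. The values of 24 members did not overlap between LT and CK, where the background was 54.8%. In LT+S against the same CK libraries, 20 members were called, 11 higher and 9 lower, against 41.7% of all genes (19.7% higher and 21.9% lower), with a median of 0.13, and 24 did not overlap against 55.7%. At an unadjusted p below 0.05 there were 25 members in LT (58.1%, against 54.03% of all genes) and 23 in LT+S (53.5%, against 50.2%). Since both comparisons rest on the same 3 CK libraries, they are not independent. Between them 11 members were called higher in both, 6 lower in both, 2 higher in LT alone, 1 lower in LT alone, 3 lower in LT+S alone, and none in opposite directions. When members were instead counted as in the methods, at more than 2-fold and an unadjusted p below 0.05, 11 members were higher and 3 lower in LT (background 11.8% and 13.4%), and 7 higher and 6 lower in LT+S (background 10.8% and 11.6%).

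**Figure D1:**
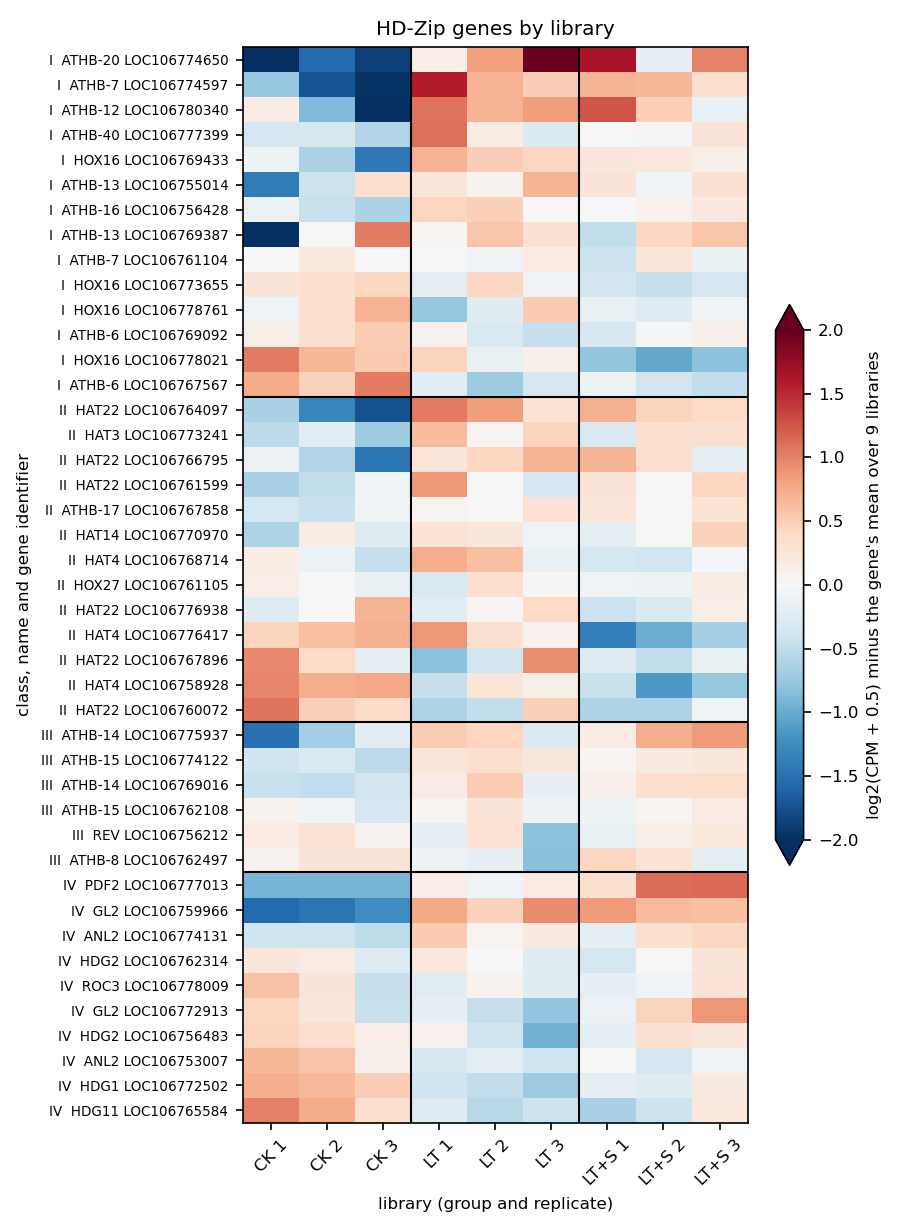
Level of the 43 tested HD-Zip genes (rows, grouped by class) in the 9 libraries (columns), as log2(CPM + 0.5) minus the gene's mean over all libraries, with colour for higher or lower than that mean. The CK columns differ from the LT and LT+S columns in both directions, and the rows of HAT4 LOC106776417 and HOX16 LOC106778021 are lowest in LT+S.

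The member with the largest difference between uniconazole-sprayed and water-sprayed cold plants, by its p-value, was HAT4 (LOC106776417, chromosome 11, 2890772 to 2892823), the class II gene that in Arabidopsis promotes elongation of stems and petioles in shade. Its level was 226, 252 and 273 CPM in the CK libraries, 303, 205 and 175 CPM in LT, and 64.3, 83.3 and 105 CPM in LT+S. All LT+S libraries lay below every other library, while LT and CK overlapped. The group means were 250 ± 23.4, 228 ± 66.6 and 84.1 ± 20.3 CPM (SD, n = 3 each). LT differed from CK by -0.14 on the log2 scale (SE 0.23, adjusted p = 0.657 in edgeR's quasi-likelihood test). LT+S was lower than CK by a log2 fold change of -1.57 (SE 0.24, adjusted p = 0.00107), a 2.97-fold difference. Against LT the log2 fold change was -1.44 (SE 0.24, interval of 2 SE from -1.91 to -0.96), or 2.71-fold lower. This last difference had an unadjusted edgeR p of 1.93e-04, rank 35 of the 19304 genes, and an adjusted p of 0.107, so it missed the threshold. Its adjusted p over the alternatives ran from 6.3e-06 in DESeq2, which called it, to 0.476.

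A second HAT4 gene (LOC106758928, chromosome 4, 16827373 to 16830839) was at 15.4, 12.9 and 13.3 CPM in CK, at 5.42, 9.11 and 8.35 CPM in LT, and at 5.47, 3.16 and 4.31 CPM in LT+S. Both cold groups lay below CK without overlap, while the lowest LT library and the highest LT+S library crossed. It fell in LT by 0.86 on the log2 scale (SE 0.25, adjusted p = 0.0184 in edgeR), a call that was lost without LT 1 (adjusted p = 0.0537). In LT+S it fell by 1.69 against CK (SE 0.25, edgeR adjusted p = 0.00101). LT+S against LT gave -0.82 (edgeR unadjusted p = 0.00947, adjusted p = 0.451). The remaining HAT4 gene (LOC106768714, chromosome 7) was at 34.1, 28.2 and 22.1 CPM in CK, at 51.02, 47.1 and 27.9 CPM in LT, and at 23.9, 23.5 and 30.3 CPM in LT+S. It was not called against CK in LT (log2 fold change 0.58, edgeR adjusted p = 0.0780, and 0.0107 without LT 3) or in LT+S (-0.12, adjusted p = 0.718). LT+S against LT gave -0.70 (unadjusted p = 0.0176, adjusted p = 0.547 in edgeR). All 3 genes of this name therefore had negative values in that comparison, of which none passed the adjusted test.

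**Figure D2:**
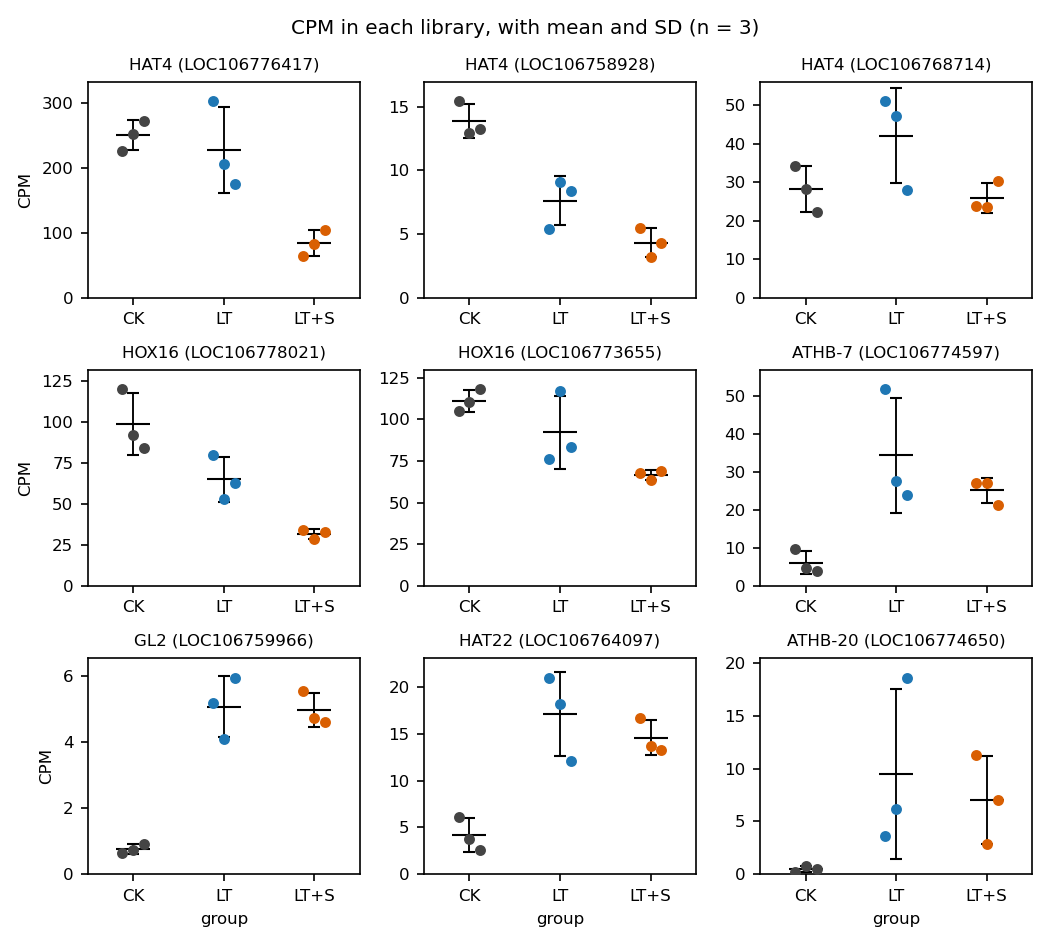
CPM in each library (dots) of 9 HD-Zip genes in CK, LT and LT+S, with the mean (short line) and SD (error bar) of 3 libraries; each panel has its own linear axis from 0. HAT4 LOC106776417 lies between 64.3 and 105 CPM in LT+S and between 175 and 303 CPM in all other libraries, whereas GLABRA 2 LOC106759966 is below 1 CPM in CK and at 4.10 to 5.95 CPM in both cold groups.

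Among the other class II genes, the group named HAT22 had 6 tested members with no common direction against CK. In Arabidopsis HAT22 is induced by abscisic acid. LOC106764097 (chromosome 6) was at 6.15, 3.75 and 2.62 CPM in CK, at 21.01, 18.2 and 12.1 CPM in LT, and at 16.7, 13.7 and 13.3 CPM in LT+S, with both cold groups above CK throughout. It rose by a log2 fold change of 2.03 in LT (SE 0.31, edgeR adjusted p = 9.65e-04) and 1.799 in LT+S (SE 0.31, adjusted p = 0.00208). LOC106766795 (chromosome 7) was at 113, 81.6 and 44.8 CPM in CK, at 145, 165 and 196 CPM in LT, and at 196, 152 and 106 CPM in LT+S, and here the lowest LT+S library lay below the highest CK library. It rose by 1.08 in LT (edgeR adjusted p = 0.0246) and by 0.93 in LT+S (adjusted p = 0.0481). The LT call was lost without CK 2 or LT 3 (adjusted p 0.0691 and 0.0650), and the LT+S call without any of CK 2, CK 3, LT 1, LT 2, LT 3, LT+S 1 and LT+S 2 (adjusted p 0.0514 to 0.157). The LT+S call was also lost in edgeR without the LT libraries (adjusted p = 0.0712) and with no filter on low counts (0.0507). LOC106760072, at 0.917 to 1.7999 CPM in CK, fell in LT+S by 1.93 (edgeR adjusted p = 0.0447), which was lost without CK 1, CK 2, CK 3, LT+S 1 or LT+S 2 (adjusted p 0.0549 to 0.136). In LT it gave -1.29 (adjusted p = 0.126, and 0.0154 without LT 3). LOC106761599, LOC106767896 and LOC106776938 were not called against CK, with log2 fold changes from -0.48 to 0.89 in LT and from -1.12 to 0.85 in LT+S. In LT+S against LT all 6 were negative, from -0.64 to -0.04, and none passed the adjusted test.

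HAT3 (LOC106773241), which in Arabidopsis acts beside HAT4 in shade and leaf polarity, was at 0.196 to 0.476 CPM in CK and at 0.683 to 1.26 CPM in LT. It rose in LT by 1.62 on the log2 scale (SE 0.48, edgeR adjusted p = 0.0225), a call lost without CK 1, CK 3, LT 1 or LT 3 (adjusted p 0.0514 to 0.0718) or with a replicate block (0.0502), while LT+S gave 1.22 (adjusted p = 0.0741, and 0.0426 without LT+S 1). HAT3 passed the filter on low counts only through the cold libraries, so its p-values are no separate support for the difference. The end of its span overlaps that of another gene, LOC106773902, and the strand used in counting is not given, so its values are uncertain. HOX27 (LOC106761105) differed by 0.04 in LT and -0.01 in LT+S, ATHB-17 (LOC106767858) by 0.85 and 0.94, and HAT14 (LOC106770970) by 0.61 and 0.57, none of them called. The second HAT14 gene (LOC106757426) had 9 counts in all libraries together and was not tested. Class II thus held 3 members called higher and 1 lower in LT, and 2 higher and 3 lower in LT+S, of 13 tested (30.8% and 38.5% called, against 46.5% and 41.7% of all genes).

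Class I held the largest called log2 fold change among the members with counts in CK. ATHB-20 (LOC106774650, chromosome 1, 2967418 to 2970436) was at 0.232, 0.774 and 0.524 CPM in CK, at 3.61, 6.15 and 18.6 CPM in LT, and at 11.2, 2.87 and 6.99 CPM in LT+S. The cold libraries all exceeded every CK library but spread widely among themselves. It rose by a log2 fold change of 4.20 in LT (SE 0.81, edgeR adjusted p = 0.00299) and 3.77 in LT+S (SE 0.81, adjusted p = 0.00583), and limma-voom gave an adjusted p of 0.0668 for the latter. ATHB-20 had few reads in CK and passed the filter on low counts only through the cold libraries. These p-values are therefore no separate support for the difference, and the size of the fold change is uncertain. ATHB-7, a growth regulator that is induced by drought and abscisic acid in Arabidopsis, was represented by LOC106774597 (chromosome 10, 2453979 to 2455466) at 9.70, 4.76 and 3.93 CPM in CK, 51.7, 27.6 and 23.9 CPM in LT, and 27.2, 26.97 and 21.2 CPM in LT+S. The lowest cold library was above the highest CK library. It rose by 2.48 in LT (SE 0.39, edgeR adjusted p = 0.00105) and 2.03 in LT+S (SE 0.39, adjusted p = 0.00324). The other gene of that name, LOC106761104, stayed at 0.214 to 0.632 CPM in all libraries and was not called.

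ATHB-12, the closest relative of ATHB-7 and likewise induced by water deficit in Arabidopsis, showed how far CK libraries could lie apart. LOC106780340 was at 88.4, 42.6 and 6.61 CPM in CK, at 168, 129 and 143 CPM in LT, and at 191, 111 and 72.1 CPM in LT+S. LT did not overlap CK, but the log2 fold changes of 1.67 in LT and 1.44 in LT+S missed the threshold (SE 0.71 each, edgeR adjusted p = 0.0832 and 0.134). Without CK 1 both passed it, at adjusted p of 0.0206 and 0.0326, and with all 9 libraries limma-voom called the LT difference (adjusted p = 0.0476), as did edgeR with a replicate block (0.0277). The ATHB-13 genes, known from cotyledon and root shape in Arabidopsis, also spread widely within CK, but rose from CK 1 to CK 3 where ATHB-12 fell. LOC106769387 was at 1.16, 8.21 and 17.3 CPM in CK and at 8.53 to 12.3 CPM in LT, and LOC106755014 at 3.54, 7.44 and 13.03 CPM in CK and at 10.7 to 16.7 CPM in LT. Neither was called with all 9 libraries. LOC106755014 passed in LT and in LT+S without CK 3 (edgeR adjusted p = 0.0186 and 0.0358).

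The spread within CK, within LT and within LT+S was wider for the family than for the table. Over the 33 members with a mean of at least 2 CPM, the median ratio of the highest to the lowest library of a group was 1.44 in CK, 1.54 in LT and 1.36 in LT+S, against 1.29, 1.30 and 1.23 over 16425 genes with the same minimum. Apart from that minimum, genes were not matched by level. Of these members, 10 differed more than 2-fold within CK (30.3%, against 13.2% of all such genes), 5 within LT (15.2% against 13.9%) and 5 within LT+S (15.2% against 6.08%). Summed CPM of 62 vascular and xylem genes also differed within CK, from 171.5 to 871.5, and their part in the spread of the members was not tested.

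HOX16 is a rice name for class I proteins, and the 4 genes that carry it moved apart. LOC106778021 (chromosome 11, 15343864 to 15345921) was at 120, 92.1 and 84.1 CPM in CK, at 79.5, 52.6 and 62.3 CPM in LT, and at 33.7, 28.4 and 32.8 CPM in LT+S, a stepwise order of groups with no overlap between any pair. It fell in LT by 0.60 (SE 0.18, edgeR adjusted p = 0.0226), a call lost without CK 1, LT 2 or LT 3 (adjusted p 0.0601 to 0.0744), and in LT+S by 1.64 (SE 0.19, adjusted p = 2.80e-04). The LT call was also lost in edgeR without the LT+S libraries (adjusted p = 0.0514). LT+S against LT gave -1.04 (SE 0.18, interval of 2 SE from -1.40 to -0.67), with an unadjusted edgeR p of 3.09e-04 at rank 47 of 19304 and an adjusted p of 0.127. DESeq2 gave 2.0e-04 for it, the lowest of the alternatives, and the highest was 0.591.

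LOC106773655 (chromosome 1, 1571948 to 1574875) was at 105, 110 and 118 CPM in CK, at 75.9, 117 and 83.4 CPM in LT, and at 67.9, 63.3 and 68.8 CPM in LT+S. The LT+S libraries lay below all others, and LT overlapped CK. It gave -0.27 in LT (edgeR adjusted p = 0.192, and 0.00898 without LT 2), fell by 0.73 in LT+S against CK (SE 0.16, adjusted p = 0.00587), and gave -0.47 in LT+S against LT (unadjusted p = 0.0158, adjusted p = 0.535). It lies inside the span of LOC106769686, a gene with 7216 counts, so its reads may not all be its own. LOC106769433 (chromosome 7) was at 384, 267 and 154 CPM in CK, at 663, 580 and 559 CPM in LT, and at 484, 477 and 446 CPM in LT+S, again without overlap between any pair of groups but in another order, with CK lowest. It rose by 1.16 in LT (SE 0.28, edgeR adjusted p = 0.00865) and by 0.81 in LT+S (SE 0.28, adjusted p = 0.0441), the latter lost without any 1 of the 9 libraries except CK 1 (adjusted p 0.0501 to 0.115). In edgeR without the LT libraries the LT+S call was lost too (adjusted p = 0.0661). LOC106778761 was at 39.6 to 97.0 CPM in LT and 63.5 to 110 CPM in CK, and was not called (log2 fold change -0.41 in LT, adjusted p = 0.298, and 0.0243 without LT 3; -0.50 in LT+S, edgeR adjusted p = 0.221).

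ATHB-16 and ATHB-6 are close relatives that in Arabidopsis limit leaf growth and abscisic acid responses. ATHB-16 (LOC106756428, chromosome 2) had the highest CPM of class I, with 660, 526 and 466 in CK, 971, 999.7 and 727 in LT, and 721, 763 and 826 in LT+S. Both cold groups lay above CK without overlap. It rose in LT by 0.71 (SE 0.19, edgeR adjusted p = 0.0128), a call lost without CK 2 (adjusted p = 0.0553), while LT+S gave 0.48 (adjusted p = 0.0631, and 0.0333 to 0.0404 without CK 1 or LT 3, with 0.0215 in DESeq2 and 0.0451 in edgeR without the LT libraries). ATHB-6 LOC106769092 was at 399 to 528 CPM in CK and 269 to 393 CPM in LT. It fell in LT by 0.53 (edgeR adjusted p = 0.0473), and the call was lost without CK 2, CK 3, LT 2, LT 3, LT+S 2 or LT+S 3 (adjusted p 0.0578 to 0.136). The call was also lost in edgeR without the LT+S libraries (adjusted p = 0.0773), with no filter on low counts (0.0546) and with a replicate block (0.0983). LT+S gave -0.40 (adjusted p = 0.120). ATHB-6 LOC106767567, at 1.43 to 2.36 CPM in CK and 0.364 to 0.714 CPM in LT, fell by 1.72 in LT (edgeR adjusted p = 0.00472) and 1.56 in LT+S (adjusted p = 0.00837). ATHB-40 (LOC106777399), whose relatives act in bud dormancy in Arabidopsis, was at 0.262 to 0.417 CPM in CK and 0.448 to 1.98 CPM in LT and was not called (log2 fold change 1.54, edgeR adjusted p = 0.0530, and 0.0163 without LT 3, while DESeq2 gave 0.0470). Class I thus had 4 called higher and 3 lower in LT, and 3 higher and 3 lower in LT+S, of 14 (50% and 42.9% called, near the 46.5% and 41.7% of all genes). Of its untested members, ATHB-40 LOC106768062 had no count, ATHB-12 LOC106754024 had 23, ATHB-20 LOC106758668 had 4, and ATHB-52 (LOC106755886) had 115, with a highest level of 3.63 CPM in LT 3 and no count in CK.

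All 6 class III genes were tested, 3 were called in each cold group, and all called members were higher (50% of the class, against 46.5% of all genes in LT and 41.7% in LT+S). ATHB-15 (LOC106774122, chromosome 9, 1202087 to 1209992), which acts in vascular patterning in Arabidopsis, had little spread, with 35.3, 38.1 and 32.1 CPM in CK, 55.3, 58.7 and 54.4 CPM in LT, and 47.8, 52.8 and 54.5 CPM in LT+S. The cold groups lay above CK and overlapped each other. It rose by a log2 fold change of 0.67 in LT (SE 0.10, edgeR adjusted p = 7.85e-04) and 0.55 in LT+S (SE 0.10, adjusted p = 0.00246). The other ATHB-15 gene (LOC106762108, chromosome 5), with the larger CPM of the pair in CK, was at 54.5, 50.1 and 41.1 CPM in CK, 54.1, 61.8 and 48.4 CPM in LT and 48.0, 53.02 and 58.2 CPM in LT+S, with overlapping groups and no call (0.17 in LT and 0.13 in LT+S).

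ATHB-14, or PHABULOSA, promotes the upper side of the leaf in Arabidopsis. LOC106775937 (chromosome 10) was at 5.57, 10.1 and 14.1 CPM in CK, at 23.7, 22.4 and 13.5 CPM in LT, and at 18.3, 27.7 and 30.3 CPM in LT+S, so that 1 LT library lay inside the CK range. It rose by 1.003 in LT (edgeR adjusted p = 0.0418), which was lost without CK 1, CK 2, LT 1, LT 2, LT+S 2 or LT+S 3 (adjusted p 0.0540 to 0.115), and by 1.36 in LT+S (adjusted p = 0.0136). The LT call was also lost in edgeR without the LT+S libraries (adjusted p = 0.0682) and with a replicate block (0.0514). LOC106769016, at 15.3 to 16.7 CPM in CK and 19.2 to 30.8 CPM in LT, rose by 0.64 in LT (edgeR adjusted p = 0.0140, lost without CK 2 at 0.0531) and by 0.71 in LT+S (adjusted p = 0.00928).

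REVOLUTA (LOC106756212), which acts in Arabidopsis in meristem formation and leaf polarity, gave -0.35 in LT (edgeR adjusted p = 0.257, and 0.0345 without LT 2) and -0.11 in LT+S. ATHB-8 (LOC106762497), an early mark of vein precursor cells in Arabidopsis, was at 13.6, 15.5 and 15.6 CPM in CK, 12.02, 11.5 and 7.05 CPM in LT, and 17.4, 15.6 and 11.4 CPM in LT+S. LT lay below CK without overlap, yet the log2 fold change of -0.55 missed the threshold (edgeR adjusted p = 0.0767), and LT+S against LT gave 0.54 (unadjusted p = 0.0413, adjusted p = 0.677). Of the 62 vascular and xylem genes, 44 were tested and 3 had no count. In LT 6 were called higher and 1 lower (15.9%, against 46.5% of all genes), and in LT+S 5 were called higher and 3 lower (18.2%, against 41.7%). Negative log2 fold changes were found for 28 of the 44 in LT (63.6%) and for 30 in LT+S (68.2%), against 49.5% of all genes in each. Their summed CPM ranged over 171.5 to 871.5 for CK, over 383 to 767 for LT and over 442 to 521 for LT+S, so the groups overlapped, and their part in the class III values was not tested.

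**Figure D3:**
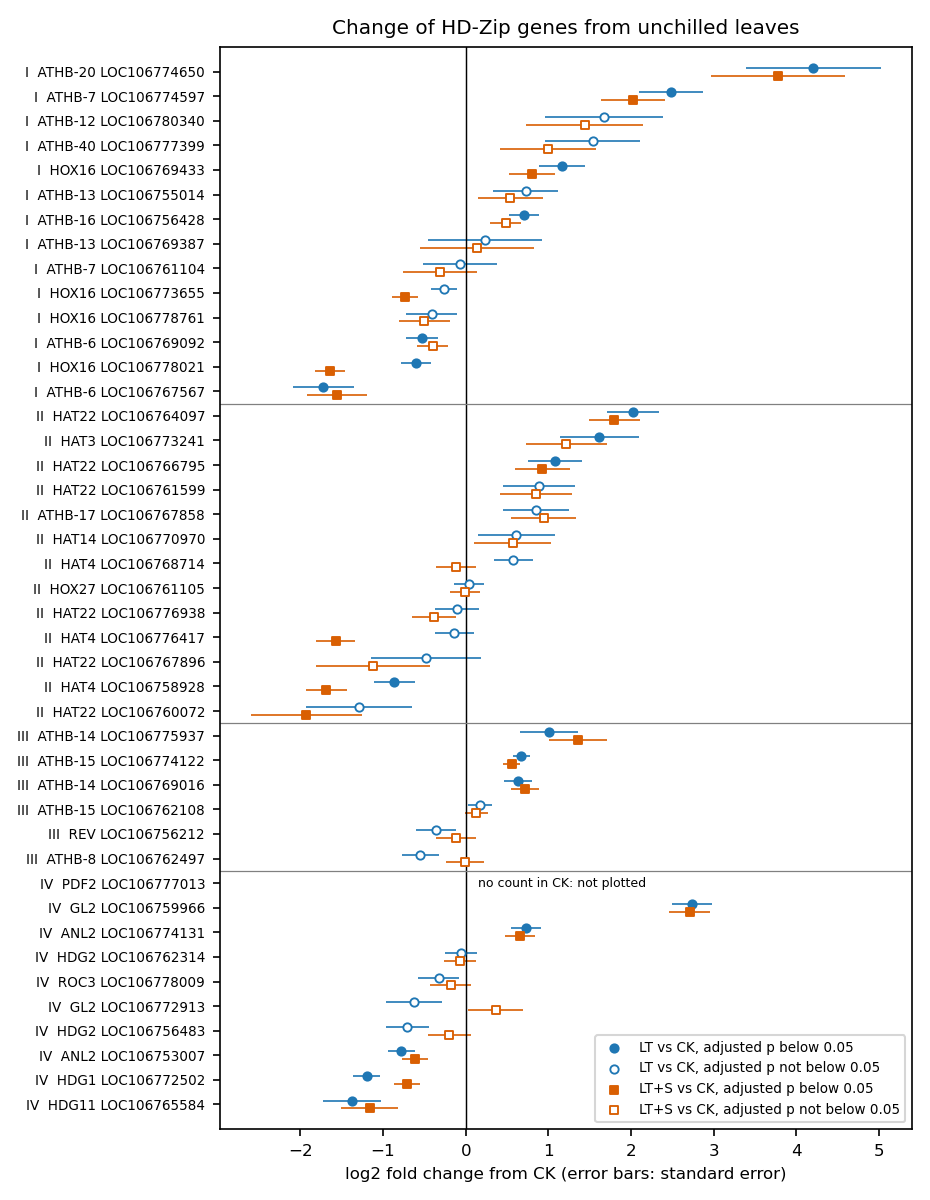
Log2 fold change of each tested HD-Zip gene (rows, by class) in LT against CK and in LT+S against CK, with bars of 1 SE; PROTODERMAL FACTOR 2 LOC106777013 is left out because it had no count in CK. ATHB-20 lies farthest to the right at 4.20 and 3.77, and HAT4 LOC106776417 is near 0 in LT (-0.14) and at -1.57 in LT+S.

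In class IV, 3 of 10 tested members were called higher and 3 lower in LT, and the counts were the same in LT+S (60% called in each, against 46.5% and 41.7% of all genes). Among those called higher in each was PROTODERMAL FACTOR 2 LOC106777013, which passed the filter on low counts through the cold libraries alone. GLABRA 2, which in Arabidopsis drives leaf hair growth and represses root hairs, was represented by a pair of genes. LOC106759966 (chromosome 5, 31538269 to 31544098) was at 0.639, 0.714 and 0.917 CPM in CK, at 5.17, 4.10 and 5.95 CPM in LT, and at 5.56, 4.72 and 4.60 CPM in LT+S. Every cold library exceeded 4 times the highest CK level. It rose by a log2 fold change of 2.74 in LT (SE 0.24, edgeR adjusted p = 8.17e-05) and 2.71 in LT+S (SE 0.24, adjusted p = 1.14e-04), with a difference of -0.03 between LT+S and LT (adjusted p = 0.986). The second GLABRA 2 gene, LOC106772913, was at 3.54 to 6.97 CPM in CK, 2.73 to 4.41 CPM in LT and 4.62 to 9.54 CPM in LT+S. It was not called against CK, and LT+S against LT gave 0.99 (edgeR unadjusted p = 0.0164, adjusted p = 0.538).

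PROTODERMAL FACTOR 2, needed for the epidermal layer in Arabidopsis, had no count in any CK library at LOC106777013 (chromosome 11, 488647 to 496240). Its level was 0.546, 0.410 and 0.570 CPM in LT and 0.684, 1.56 and 1.59 CPM in LT+S, low throughout but present in every cold library. Against a floor of 3 counts per library in CK (0.183 CPM) it was at least 2.78-fold higher in LT and at least 6.98-fold higher in LT+S, and the adjusted p of edgeR was 0.00240 and 8.54e-04. The gene passed the filter on low counts through the cold libraries alone, so these p-values are no separate support for the difference. It is counted among the members called higher in both comparisons with CK. LT+S was above LT in all libraries, with a log2 fold change of 1.32 (edgeR unadjusted p = 0.0207, adjusted p = 0.573). The other gene of that name, LOC106754372, had 13 counts in all and was not tested.

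ANTHOCYANINLESS 2, which governs anthocyanin in the layer under the epidermis in Arabidopsis, was a pair of genes that moved in opposite directions. LOC106753007 (unplaced sequence) was at 54.8, 51.3 and 37.1 CPM in CK, 27.4, 30.1 and 25.96 CPM in LT, and 34.0, 27.1 and 32.5 CPM in LT+S. It fell by 0.78 in LT (SE 0.16, edgeR adjusted p = 0.00398) and by 0.61 in LT+S (adjusted p = 0.0139, lost without CK 2 or LT+S 2 at 0.0547 and 0.0558). LOC106774131 (chromosome 9) was at 15.6, 15.7 and 14.5 CPM in CK, 30.2, 21.7 and 23.8 CPM in LT, and 18.3, 26.05 and 27.9 CPM in LT+S. It rose by 0.73 in LT (SE 0.18, edgeR adjusted p = 0.0102) and by 0.66 in LT+S (adjusted p = 0.0177, lost without CK 2, LT+S 2 or LT+S 3 at 0.0520 to 0.0674). For each gene both cold groups stood apart from CK.

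The HDG genes are class IV members of the epidermis. HDG1 (LOC106772502, chromosome 8, 40902975 to 40909124), which in Arabidopsis promotes the differentiation of cells, was at 22.8, 21.4 and 19.3 CPM in CK, 10.2, 9.47 and 7.99 CPM in LT, and 11.8, 11.4 and 15.5 CPM in LT+S. No groups overlapped, with LT lowest. It fell by 1.20 in LT (SE 0.16, edgeR adjusted p = 4.55e-04) and by 0.71 in LT+S (SE 0.16, adjusted p = 0.00676), and LT+S against LT gave 0.49 (unadjusted p = 0.0137, adjusted p = 0.513). HDG11 (LOC106765584, chromosome 1), linked to hair branching and drought tolerance in Arabidopsis, was at 4.30, 3.51 and 2.49 CPM in CK, 1.51, 1.14 and 1.30 CPM in LT, and 1.03, 1.31 and 2.26 CPM in LT+S. It fell by 1.38 in LT (SE 0.35, edgeR adjusted p = 0.0107) and by 1.16 in LT+S (adjusted p = 0.0241, lost without CK 1, CK 2, LT+S 1 or LT+S 2 at 0.0685 to 0.0844). With a replicate block in edgeR the LT+S call was lost as well (adjusted p = 0.0526). HDG2 (LOC106762314, chromosome 5), a promoter of stomatal fate in Arabidopsis, was at 48.8, 47.0 and 34.7 CPM in CK, 48.7, 41.6 and 35.5 CPM in LT, and 32.9, 41.7 and 49.8 CPM in LT+S, with overlapping groups and log2 fold changes of -0.05 and -0.07. The other HDG2 gene (LOC106756483) gave -0.70 in LT (edgeR adjusted p = 0.0522, and 0.0119 without LT 1, while DESeq2 and limma-voom called it at 0.0337 and 0.0403), and the rice-named ROC3 (LOC106778009) gave -0.33 (adjusted p = 0.311, and 0.0335 without CK 3). Of the untested class IV genes, HDG11 LOC106774846 and LOC106774847 had no count, HDG11 LOC106767879 and HDG1 LOC106762871 had 1 each, and ROC2 (LOC106778579) had 34. For 28 epidermis and cuticle genes (26 of them detected), the summed CPM ranged over 595 to 896 for CK, over 586 to 676 for LT and over 552 to 567 for LT+S, and their part in the class IV values was not tested.

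Against LT, no member was called in LT+S by edgeR, and the background was 0.0155%, or 3 genes of the 19304 (0.0104% higher and 0.00518% lower). Those below an unadjusted p of 0.05 were 9 members of 43 (20.9%) against 7.07% of all genes, and DESeq2 called 2 members, both lower, HAT4 LOC106776417 and HOX16 LOC106778021. Of the 9, 5 were lower, namely the 3 HAT4 genes and HOX16 LOC106778021 and LOC106773655, and 4 were higher, namely PROTODERMAL FACTOR 2 LOC106777013, GLABRA 2 LOC106772913, HDG1 LOC106772502 and ATHB-8. The values of 7 members (16.3%) did not overlap between LT+S and LT, against 14.1% of all genes. By the threshold of the methods, 1 member was higher and 2 lower (background 1.47% and 0.995%), and the total of 3 moved to 5 without LT+S 1 and to 1 without LT+S 2.

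**Figure D4:**
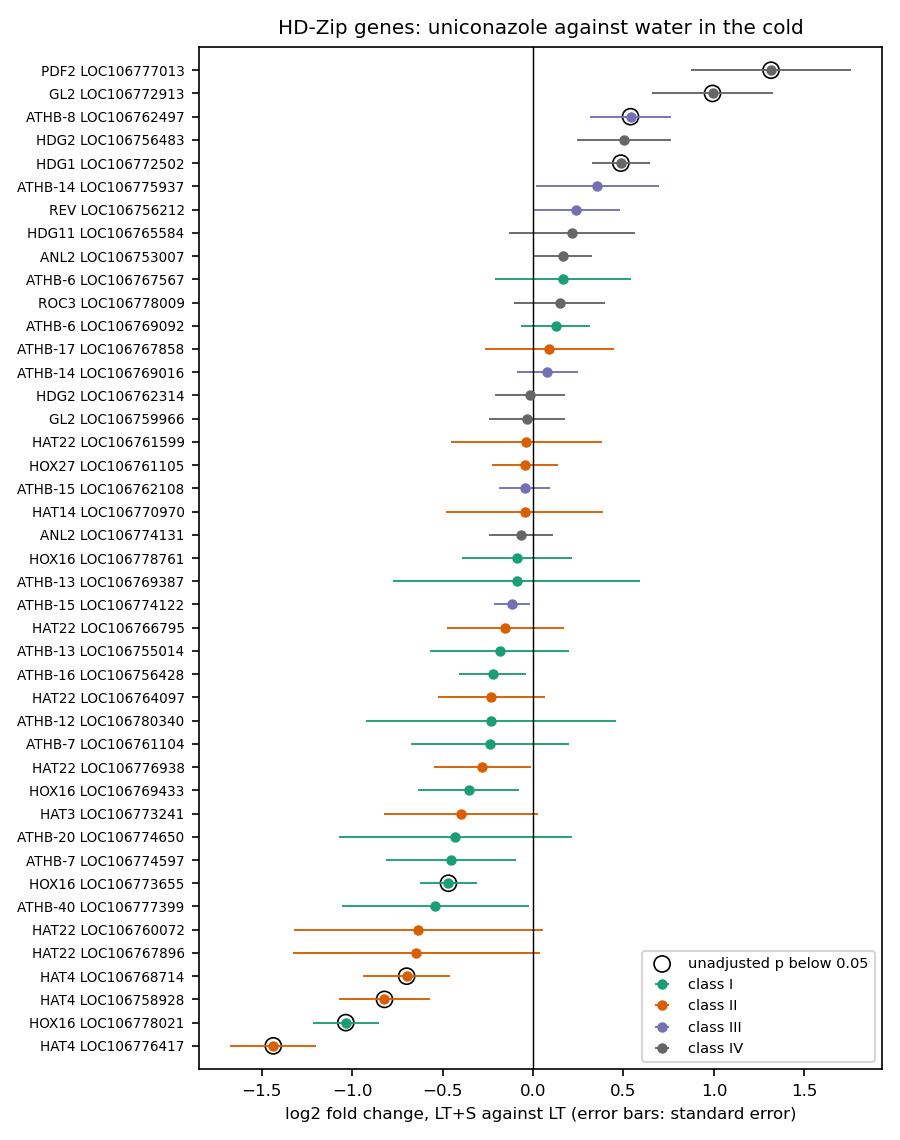
Log2 fold change of each tested HD-Zip gene in LT+S against LT (horizontal axis) with bars of 1 SE, by class, with circles round the 9 genes at an unadjusted p below 0.05. HAT4 LOC106776417 at -1.44 and HOX16 LOC106778021 at -1.04 are the lowest, and PROTODERMAL FACTOR 2 LOC106777013 at 1.32 is the highest.

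The signs in this comparison were unevenly spread over the classes. The log2 fold change was negative for 12 of 14 class I genes and 12 of 13 class II genes, and for 2 of 6 in class III and 3 of 10 in class IV. Classes I and II together had 24 of 27 lower, with a median of -0.24, whereas classes III and IV had 11 of 16 higher, with a median of 0.19. Over all genes tested 51.1% were negative. In the same comparison 35 of 44 vascular and xylem genes and 11 of 14 floral organ genes were negative and 19 of 20 mesophyll genes positive, and their part in the split was not tested. The split was noticed after the values were seen, it has no test, and the LT+S and LT libraries stood apart for the 7 members counted above.

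Other genes of the pathways in which the family works were followed as 5 lists with 49 genes. In the list of light and shade regulators, 3 of 10 tested genes were called higher and 3 lower in LT, and 3 higher and 2 lower in LT+S (60% and 50% called, against 46.5% and 41.7% of all genes). PIF4 (LOC106763151), a growth-promoting factor that phytochromes destabilize, was at 24.4 ± 8.53 CPM in CK, 198 ± 32.4 CPM in LT and 160 ± 18.7 CPM in LT+S (SD, n = 3 each), and rose by 3.02 and 2.71 on the log2 scale (edgeR adjusted p = 7.14e-05 and 1.41e-04). The other PIF4 gene (LOC106778791) was not called, with group means of 167, 181 and 185 CPM and log2 fold changes of 0.12 and 0.15. UNE10 (LOC106753050), of the same factor family, fell by 1.63 in LT and 1.42 in LT+S (edgeR adjusted p = 0.00162 and 0.00373). The other UNE10 gene (LOC106780284) gave -0.74 and -0.67 (edgeR adjusted p = 0.0160 and 0.0267). The median log2 fold change of the list was 0.07 in LT and 0.09 in LT+S, near that of all genes.

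Among leaf polarity factors, which act against or beside class III, 3 of 15 were called higher and 6 lower in LT, and 2 higher and 4 lower in LT+S. These were 60% and 40% called, against 46.5% and 41.7% of all genes. KAN2 (LOC106776394), a factor of the lower leaf side, fell by 1.29 and 0.86 (edgeR adjusted p = 8.54e-04 and 0.00704), and AS1 (LOC106754520), which represses meristem genes in the leaf, by 2.29 and 1.75 (adjusted p = 0.00308 and 0.0116). The other KAN2 gene (LOC106765977) was not called (-0.23 in LT and -0.10 in LT+S). Of the other AS1 genes, LOC106774359 was called lower in LT only (-0.57 and -0.43) and LOC106773607 in neither (0.18 and -0.05). LITTLE ZIPPER 4 (LOC106771592), a small protein that inactivates class III proteins by pairing with them, was not called (-0.52 in LT and -0.17 in LT+S). Of 13 abscisic acid receptors and clade A phosphatases, 2 were called higher and 4 lower in LT, and 2 higher and 3 lower in LT+S. Their shares of 46.2% and 38.5% called were near the 46.5% and 41.7% of all genes. The phosphatase PP2C 37 (LOC106757826), a brake on abscisic acid signalling, rose by 2.103 and 1.88 (edgeR adjusted p = 2.50e-04 and 5.59e-04), and the receptor PYL1 (LOC106767322) fell by 1.90 and 1.41 (adjusted p = 5.04e-04 and 0.00245). The other PP2C 37 gene (LOC106762938) gave 1.28 and 1.37 (edgeR adjusted p = 0.0143 and 0.0120). The other PYL1 gene (LOC106776425) was not called (-0.12 and -0.57). Of the epidermal partners of GLABRA 2, 2 were tested. TRY (LOC106777423), an inhibitor of hair fate in Arabidopsis, had a CK mean of 2.57 ± 0.34 CPM. Its cold means were lower, with 0.131 ± 0.084 CPM for LT and 0.183 ± 0.067 CPM for LT+S. The log2 fold changes were -4.25 and -3.77 (edgeR adjusted p = 1.53e-04 and 2.83e-04). TRY had 36 to 51 counts per CK library, but 2 to 5 per LT library and 3 to 6 per LT+S library. It passed the filter on low counts through the CK libraries alone, so its p-values are no separate support for the difference. With so few reads in the cold libraries, the size of the fold change is uncertain. GLABRA 3 (LOC106769304), a bHLH factor that activates GLABRA 2, gave 0.08 and 0.24. Over the 5 lists, 22 of 41 tested genes were called in LT (53.7%, against 46.5% of all genes), 14 without CK 2, and 17 in LT+S (41.5%, against 41.7%). No gene of the lists was called in LT+S against LT by edgeR.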

How the data were processed

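Raw read counts per gene for the 9 libraries were used as deposited. According to the methods, the authors trimmed reads with Trimmomatic, aligned them with HISAT2 to the Vradiata_ver6 assembly and counted them with htseq-count; the submitters' notes also name CASAVA 1.8 and Cufflinks. Strand and the handling of multiply mapped reads are not given in the sources used here, so near-identical copies may share reads. From the deposited counts, edgeR 4.0.16 (R 4.3.3) fitted 1 quasi-likelihood model over all 9 libraries with group as the only term, TMM scaling and filterByExpr, and Benjamini-Hochberg adjustment over 19304 genes. DESeq2 1.42.0, limma-voom (limma 3.58.1), other scalings and filters, a replicate block and leaving out each library were the alternatives. The fitting code was tested on simulated data. SD and SE cover the spread between 3 pots a group. Classes were assigned by name. Members and lists were chosen with earlier results of these data known.

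Values in each library are given for HAT4, for the 14 members with the largest change in LT among those called with a mean of at least 2 CPM, for the 5 members with the smallest p in each other comparison and for the member with the highest CPM of each class, and for other members where a statement turns on them. Of each related list, the 2 genes with the smallest p in LT are named, with the other tested genes of the same names.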

Additional observations from a re-analysis of the deposited data

How the results depend on the processing

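The counts of called HD-Zip genes were 15 to 21 in LT against CK and 14 to 20 in LT+S against CK when 1 library was left out, around 20 in each. Past the threshold of the methods the counts ran from 10 to 16 over all alternatives in LT against CK (13 to 15 with 1 library left out) and from 9 to 14 in LT+S against CK (11 to 14), lowest in both where a mean of at least 1 CPM was required. In LT+S against LT, edgeR and limma-voom called 0 members under every alternative, and DESeq2 with all 9 libraries called 2. By the threshold of the methods this comparison gave 3 members, and 1 to 5 with 1 library left out. The 5 related lists had 22 genes called in LT against CK, and 14 to 23 with 1 library left out. Over 2035 alternative values of single members, 1945 stayed on the same side of the threshold, 65 lost the call, 25 gained it and 0 called values changed direction. Values without a call could change sign. For ATHB-13 LOC106769387 in LT against CK they ran from -0.29 to 1.15. The replicate numbers shared by the groups showed no pairing of the libraries. For this, libraries were correlated on log2 CPM after each gene's group mean was subtracted. The correlations ran from -0.296 to 0.267 for same-numbered libraries and from -0.266 to 0.364 for others. With the replicate number as a block, 18 members were called in LT against CK, 19 in LT+S against CK and 0 in LT+S against LT. With 3 libraries a group, members under about 1 CPM rest on few reads.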

Other observations

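A further 3 genes are described as putative ATHB-51, with the family's words in lower case, and were left out by the wording of the rule. LOC106757542 had 13 counts over the 9 libraries, LOC106771749 had 10 and LOC106757543 had 0, and none was tested. Of the 13 counts and of the 10 counts, the highest single level was in LT+S 1 (0.299 and 0.214 CPM).

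Of the family's members, 10 lay on chromosome 7, 8 on chromosome 5, 6 on chromosome 11 and 1 each on chromosomes 3 and 6. These counts were not set against the number of all genes on each chromosome. The summed level of 51 floral organ genes, 20 of which had no count, was 394 to 484 CPM in CK, 569 to 735 CPM in LT and 444 to 632 CPM in LT+S, and that of 34 shoot meristem genes, 14 with no count, was 504 to 527, 691 to 760 and 602 to 641 CPM. Their part in the values of the HD-Zip genes was not tested.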
